A study of Saccharomyces cerevisiae with 17 samples.

Results

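The DNA replication machinery genes described here are 49 budding yeast (Saccharomyces cerevisiae) genes, taken by systematic name from a list of the replicative helicase, origin recognition and licensing factors, helicase activators, polymerases and primase, the sliding clamp and its loader, and RPA, ligase, flap endonuclease and fork factors. They are 49 of 5797 gene identifiers in each of 3 deposited count tables, and they were taken by a rule on names, not on counts. Every RNA library came from the wild-type haploid strain BY4741 (mating type a, lacking HIS3, LEU2, MET15 and URA3), cultured in liquid YPD until the OD600 reached 0.8, with no cell cycle arrest named in the labels. RNA 5′ ends were recorded by SMORE-seq, in which an adapter is ligated to 5′ ends that carry a phosphate. The CIP/TAP library (1 sample) was made from poly(A)-selected RNA treated with calf intestinal phosphatase (CIP), which strips phosphates from uncapped ends, and then with tobacco acid pyrophosphatase (TAP), which opens the cap. The TAP library (1 sample) was made from poly(A)-selected RNA treated with TAP and no CIP. The ribo depletion table holds 3 samples together, whose labels name removal of ribosomal RNA and no enzyme. The other 12 of the 17 samples in the series, chromatin libraries of tagged strains, were not analysed here.

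Chromosome replication in yeast is licensed when the origin recognition complex (ORC), with Cdc6 and Cdt1 (TAH11), loads the MCM helicase onto origins. Kinases then bring Cdc45 and the GINS complex to MCM by way of Sld2, Sld3 and Dpb11, and the helicase starts to unwind DNA. Polymerase alpha with primase begins each strand, polymerase epsilon extends the leading strand and polymerase delta the lagging strand, held by the clamp PCNA (POL30), which the RFC complex loads. Many of these genes are known to be transcribed once per cell cycle, around the start of S phase.

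The tables summed to 1097457 counts for CIP/TAP, 864536 for TAP and 2821480 for ribo depletion. A count of 0 is compatible with up to 3 counts, equal to 2.73, 3.47 and 1.06 CPM (counts scaled to a table total of 1000000) in that order. No group has replicate values, so no difference below has a replicate check or a p-value. Intervals of a single count or ratio cover counting error only, and those of shares and medians treat identifiers as independent draws, which they need not be. The strand setting of the counting was stated in no source used here. Reads of a gene and of an overlapping or closely divergent transcript therefore cannot be told apart, and each value is a count listed under an identifier, not the expression of that gene.

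The replication identifiers ranged from counted in every table to empty in every table, with others in between. At least 10 counts were listed for 26 of 49 in CIP/TAP (53.1%, exact Clopper-Pearson 95% interval 38.3 to 67.5%), 24 of 49 in TAP (34.4 to 63.7%) and 24 of 49 in ribo depletion (34.4 to 63.7%). Over all identifiers the shares were 33.0% in CIP/TAP, 37.1% in TAP and 31.5% in ribo depletion. The members' intervals lay above the share of all identifiers in CIP/TAP and ribo depletion and included it in TAP. In all 3 tables at least 10 counts were listed for 20 of 49 members, against 22.2% of all identifiers. Another 17 members were at 0 throughout (34.7%, against 39.6% of all identifiers). The members together held 12783 counts in CIP/TAP (1.16% of the table, 1.14 to 1.19%), 7954 in TAP (0.920%, 0.900 to 0.940%) and 20797 in ribo depletion (0.737%, 0.727 to 0.747%), with 0.845% of the identifiers.

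**Figure D1:**
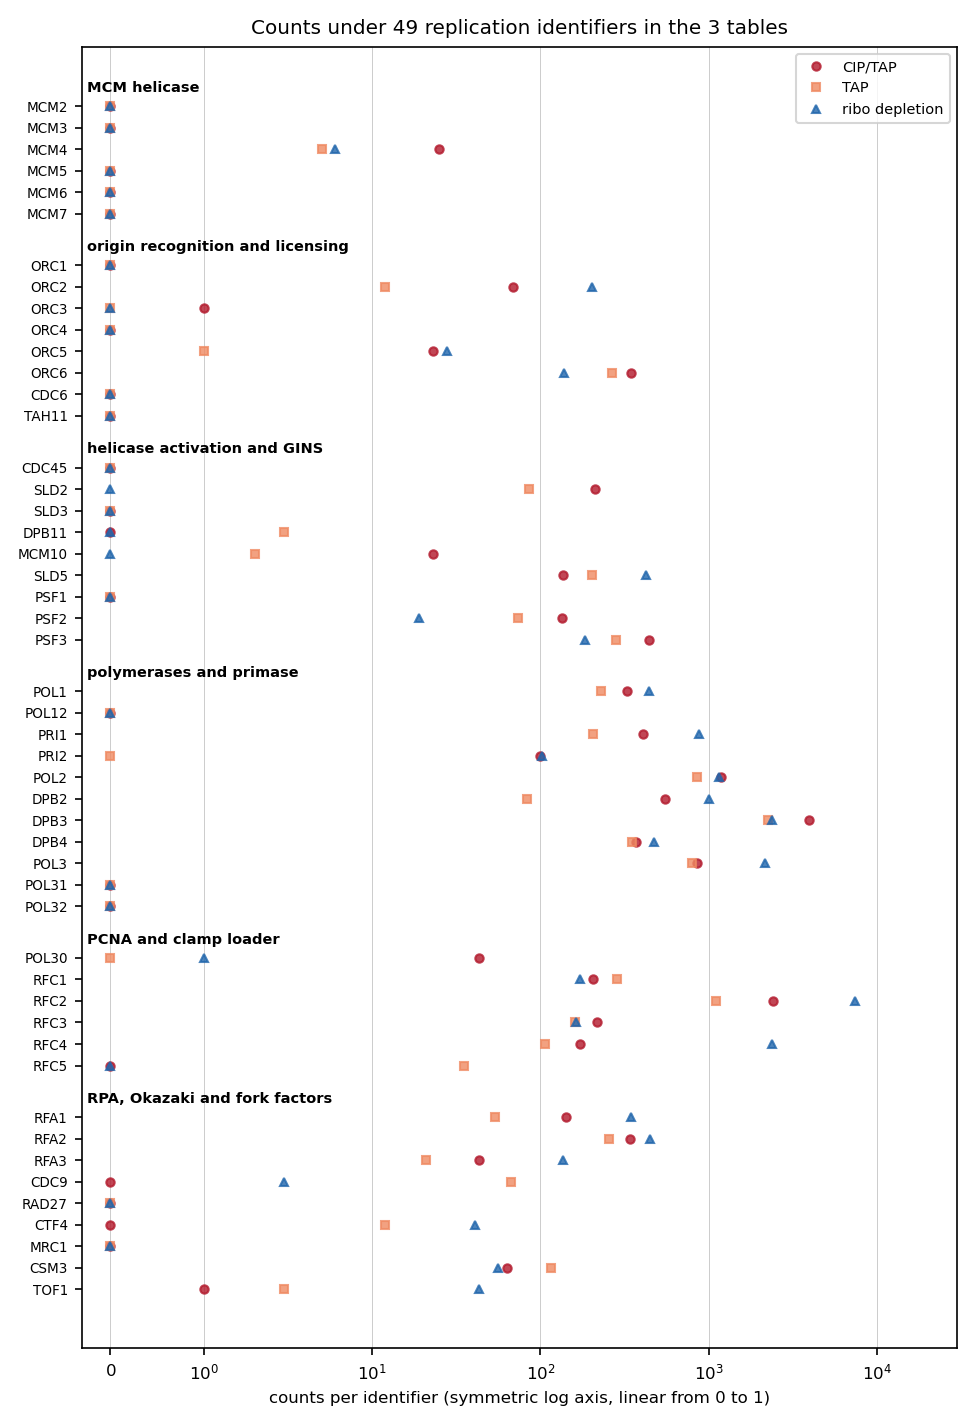
Counts listed under each of the 49 replication identifiers (rows, by role) in the CIP/TAP, TAP and ribo depletion tables (horizontal axis, counts, symmetric log scale). MCM identifiers sit at 0 except MCM4, while DPB3 and RFC2 have the most counts in the poly(A) libraries and RFC2 in ribo depletion.

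The MCM subunits held few counts. Of the 6 subunits of the MCM helicase, MCM2, MCM3, MCM5, MCM6 and MCM7 were at 0 in all tables, as were 39.6% of all identifiers. MCM4 had 25 counts in CIP/TAP (exact Poisson 95% interval 16.2 to 36.9), 5 in TAP (1.62 to 11.7) and 6 in ribo depletion (2.20 to 13.1), so the CIP/TAP count lay above both others beyond counting error before depth is considered. In CPM these were 22.8, 5.78 and 2.13 in the same order. No MCM identifier had a divergent gene within 500 bp upstream. Among all 1469 identifiers with a divergent gene farther away, 1002 were at 0 in CIP/TAP, 928 in TAP and 1033 in ribo depletion. Among all 2831 with an upstream gene on the same strand, 1925, 1846 and 2029 were at 0. MCM3 followed a tRNA gene on its own strand (251 bp), and the first gene upstream of MCM6 was a divergent tRNA gene 1361 bp away.

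Among ORC subunits, which mark origins, ORC1 and ORC4 were at 0 in all tables and ORC3 had 1 count in CIP/TAP. ORC6 (YHR118C, R64 chromosome VIII, 344321 to 345628) had 348 counts in CIP/TAP, 266 in TAP and 139 in ribo depletion. ORC2 had 69, 12 and 203 counts in the same order of tables, and was lowest in TAP. ORC5, which lies 219 bp downstream of POL2 on the same strand, had 23, 1 and 28. CDC6 and TAH11, the loaders that act with ORC, were at 0 in all tables.

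Of the factors that activate the helicase, CDC45, SLD3 and the GINS subunit PSF1 were at 0 throughout. DPB11, the scaffold for Sld2 and Sld3, had 3 counts in TAP only, and MCM10 had 23 counts in CIP/TAP, 2 in TAP and 0 in ribo depletion. SLD2 (YKL108W, chromosome XI, 234426 to 235787), a target of the cyclin-dependent kinase, had 210 counts in CIP/TAP, 86 in TAP and 0 in ribo depletion, the deepest table. The counted GINS subunits did not follow one order. PSF3 had 441, 280 and 185 counts and PSF2 had 135, 74 and 19 in CIP/TAP, TAP and ribo depletion. SLD5 had 137 counts in CIP/TAP, 203 in TAP and 424 in ribo depletion, or 125, 235 and 150 CPM, highest in TAP. With the TMM scaling used for the ratios below, ribo depletion was the highest instead. The log2 ratio of TAP over ribo depletion was then −0.64 (−0.89 to −0.40).

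Polymerase and primase subunits carried 60.5% of the members' counts in CIP/TAP, 60.2% in TAP and 41.3% in ribo depletion, with 11 of the 49 identifiers. DPB3 (YBR278W, chromosome II, 760294 to 760899), a small subunit of polymerase epsilon, had 3941 counts in CIP/TAP, 2270 in TAP and 2393 in ribo depletion. Per kb of gene length it stood first among the members in both poly(A) libraries, with 5926 CPM per kb in CIP/TAP and 4333 in TAP, and second in ribo depletion with 1400. Lengths bear on reads along a gene and need not bear on 5′ ends. The other epsilon subunits were counted in all tables as well. The catalytic subunit POL2 had 1183, 855 and 1152 counts, DPB4 had 372, 351 and 473, and DPB2 had 548, 83 and 1006 in CIP/TAP, TAP and ribo depletion. DPB2 alone among these 4 had a TAP count far below both other tables.

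For polymerase delta, the catalytic subunit POL3 (YDL102W, chromosome IV, 276872 to 280165) had 858 counts in CIP/TAP, 796 in TAP and 2156 in ribo depletion, while POL31 and POL32 were at 0 in all tables. Of polymerase alpha and primase, the catalytic POL1 had 328, 229 and 441 counts and the primase subunit PRI1 had 406, 206 and 876. The large primase subunit PRI2 had 99 counts in CIP/TAP, 0 in TAP and 102 in ribo depletion. POL12 was at 0 throughout. Each of the 3 polymerases thus had its catalytic subunit counted in every table, and alpha and delta had subunits listed at 0.

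Every identifier of the clamp and its loader, 6 in all, had at least 10 counts in some table, as had 2766 of all 5797 identifiers. RFC2 (YJR068W, chromosome X, 567643 to 568704), a small loader subunit, had 2405 counts in CIP/TAP, 1113 in TAP and 7416 in ribo depletion. It held 35.7% of the members' counts in ribo depletion and stood first there per kb, with 2475 CPM per kb. RFC4 (YOL094C, chromosome XV, 141584 to 142555) had 171, 106 and 2368 counts in CIP/TAP, TAP and ribo depletion, high only after ribo depletion. RFC1, the large subunit, had 207, 287 and 171, and RFC3 had 218, 161 and 162. RFC5 and POL30 are neighbours that end 160 bp apart on opposite strands. RFC5 had 35 counts in TAP and 0 in the others, and POL30 had 43 in CIP/TAP, 0 in TAP and 1 in ribo depletion, so that each had at least 10 counts in a single table.

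RFC2 and DPB3, the members with the largest summed counts, set apart after their values were seen, together made up 49.6% of the members' counts in CIP/TAP, 42.5% in TAP and 47.2% in ribo depletion. The share of the other 47 in each table was 0.587%, 0.529% and 0.389% in the same order.

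RPA, which coats single-stranded DNA, was counted for all 3 subunits. RFA2 had 342 counts in CIP/TAP, 257 in TAP and 450 in ribo depletion, RFA1 had 143, 54 and 347, and RFA3 had 43, 21 and 136. In CPM, RFA1 (130, 62.5 and 123) and RFA3 (39.2, 24.3 and 48.2 in the same order of tables) were lowest in TAP. RFA2, with 312, 297 and 159 CPM, was lowest in ribo depletion. That order of RFA2 depended on scaling. With the TMM scaling used for the ratios below, RFA2 in TAP lay below ribo depletion (log2 ratio −0.39, −0.61 to −0.16). The flap endonuclease RAD27 and the checkpoint mediator MRC1 were at 0 in all tables. CDC9, the ligase of Okazaki fragments, had 0 counts in CIP/TAP, 67 in TAP and 3 in ribo depletion, the reverse of PRI2, which had counts in the tables where CDC9 had few. Of the fork factors, CSM3 had 63, 116 and 56 counts, its partner TOF1 had 1, 3 and 43, and CTF4 had 0, 12 and 41 in CIP/TAP, TAP and ribo depletion.

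**Figure D2:**
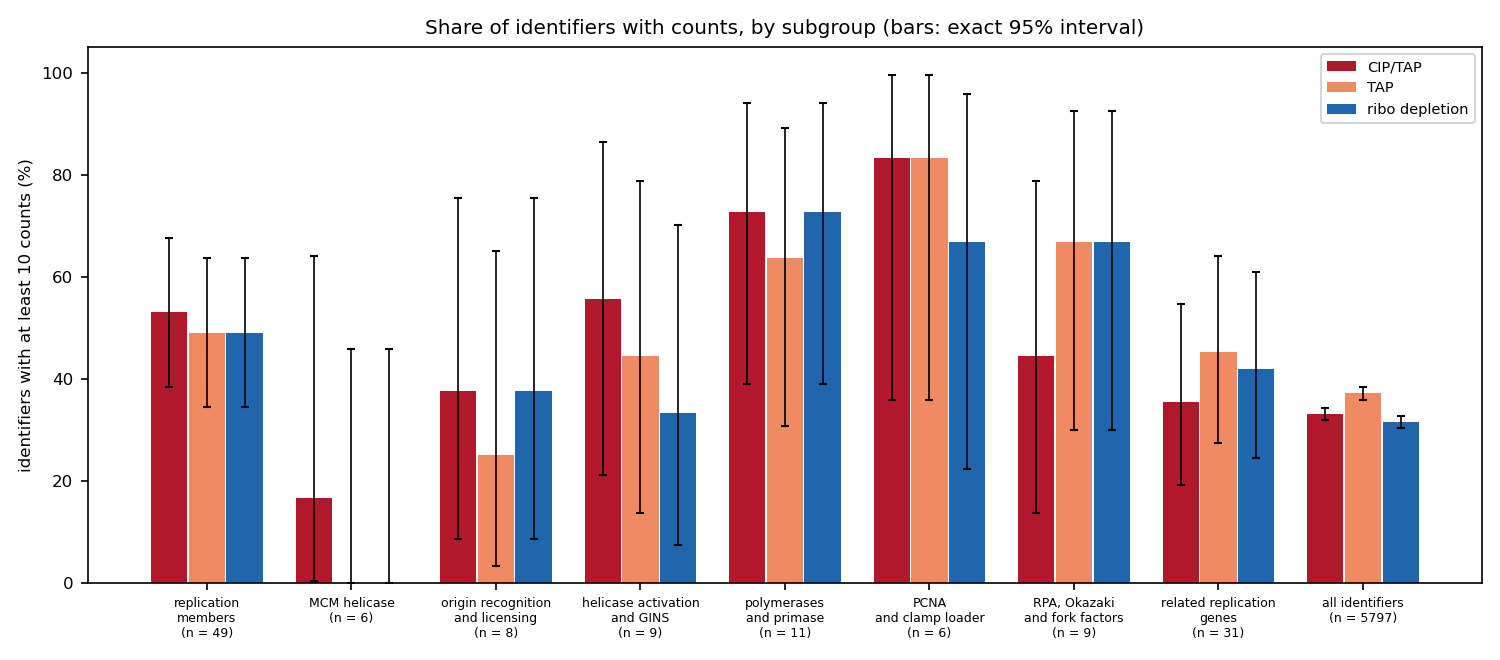
Share of identifiers with at least 10 counts (vertical axis, %) for all members, each role, related replication genes and all identifiers, in CIP/TAP, TAP and ribo depletion; error bars are exact 95% intervals. The MCM helicase has 1 of 6 in CIP/TAP and 0 of 6 in the other tables, and polymerases have 8, 7 and 8 of 11.

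By role, the share with at least 10 counts was lowest for the MCM helicase, with 1 of 6 in CIP/TAP (16.7%, 0.421 to 64.1%) and 0 of 6 in TAP and ribo depletion (upper bound 45.9%). It was 8, 7 and 8 of 11 for polymerases and primase in CIP/TAP, TAP and ribo depletion (72.7%, 63.6% and 72.7%). PCNA and its loader had 5, 5 and 4 of 6, and licensing factors 3, 2 and 3 of 8. Activators and GINS had 5, 4 and 3 of 9, and RPA, Okazaki and fork factors 4, 6 and 6 of 9. With so few identifiers in each role, the intervals of all roles overlapped in CIP/TAP and in TAP, and in ribo depletion as well. The shares of all identifiers, 33.0%, 37.1% and 31.5%, lay inside the intervals of the MCM and licensing roles. They lay below the interval of polymerases and primase in CIP/TAP and ribo depletion (39.0 to 94.0% in both), and below that of PCNA and its loader in CIP/TAP (35.9 to 99.6%).

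The roles also differed in gene arrangement, which ran with the counts. The first gene upstream of each member is divergent if transcribed from the other strand and tandem if transcribed from the same one, and the gap counts the bases between both annotated spans. A divergent gene within 500 bp was found for 20 of 49 members (40.8%, against 25.7% of all identifiers), for 7 of 11 polymerase and primase identifiers, 4 of 6 of the clamp and loader, 4 of 9 RPA, Okazaki and fork factors, 3 of 9 activators and GINS, 2 of 8 licensing factors and 0 of 6 MCM subunits. These 20 held 93.2% of the members' counts in CIP/TAP, 94.9% in TAP and 95.2% in ribo depletion. Over all identifiers, those so arranged held 87.2%, 85.6% and 86.4% of the counts in the same order, so most counts lay there in general.

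Of these 20 members, 17 had at least 10 counts in CIP/TAP (interval 62.1 to 96.8%, against 72.9% of all identifiers so arranged), 18 in TAP (68.3 to 98.8%, against 76.6%) and 17 in ribo depletion (62.1 to 96.8%, against 70.2%). Each interval includes the share of all identifiers with that arrangement. Of 13 members with a divergent gene farther away, 2, 2 and 3 were counted in CIP/TAP, TAP and ribo depletion (15.4%, 15.4% and 23.1%), where all such identifiers gave 21.4%, 25.5% and 20.5%. Of 16 members with a tandem upstream gene, 7, 4 and 4 were counted, where all such identifiers gave 18.2%, 22.5% and 17.1%. The interval for the 7 of 16 tandem members in CIP/TAP was 19.8 to 70.1%, with its lower bound just above 18.2%. With the members' mix of the 3 arrangements, all identifiers would give 41.4% in CIP/TAP, 45.4% in TAP and 39.7% in ribo depletion, values inside the intervals of the members' own shares. The part of the arrangement in the counts was not tested.

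**Figure D3:**
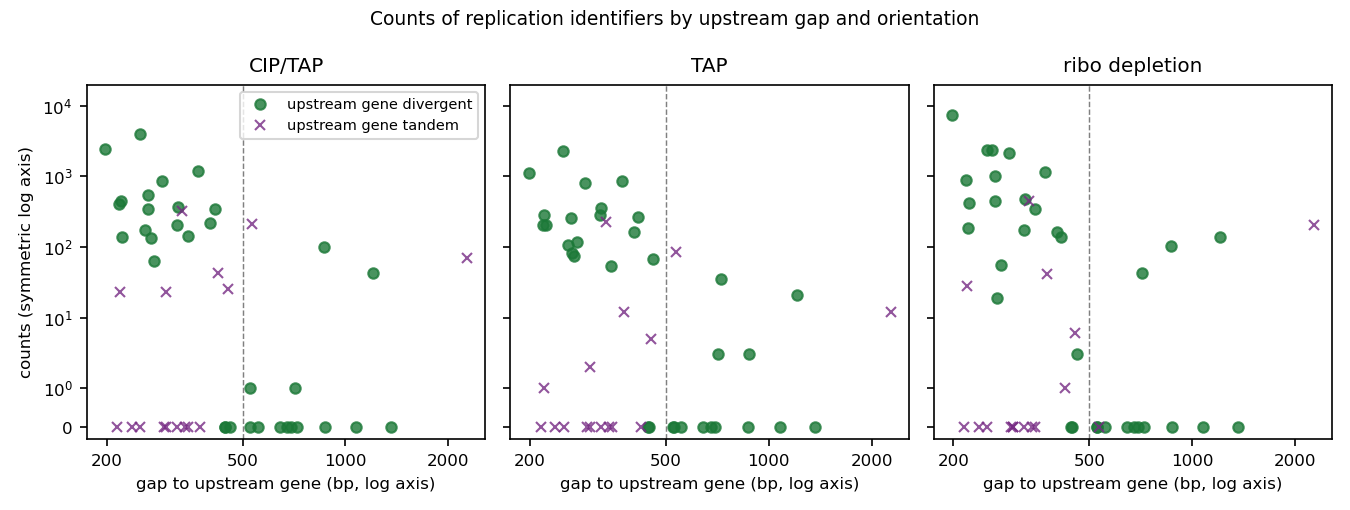
Counts of the 49 replication identifiers (vertical axis, symmetric log scale) against the gap to the upstream gene (horizontal axis, bp, log scale), by orientation, in CIP/TAP, TAP and ribo depletion. The dashed line marks 500 bp, and the members with a divergent gene up to 414 bp away all have at least 10 counts.

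Counts also differed with distance among the divergent members. All 15 members with a divergent gene 198 to 371 bp away had at least 10 counts in every table, against 61.6%, 80.0% and 64.8% of all identifiers with gaps of up to 200, 201 to 300 and 301 to 400 bp. Of 5 members with gaps of 401 to 500 bp, RFC3 (402 bp) and ORC6 (414 bp) had at least 10 counts in every table, while POL31 (443 bp), TAH11 (445 bp) and CDC9 (459 bp) did not. The share of all identifiers in that range was 29.6%. RFC2, with the highest count in ribo depletion, had the shortest gap, 198 bp to YAE1. Of the 22 members with at least 200 counts over the 3 tables, 5 had no divergent gene within 500 bp. These were POL1, which follows MET4 on the same strand by 333 bp, SLD2, which follows HAP4 by 534 bp, ORC2, which follows TRM7 by 2272 bp, and PRI2 and RFA3, whose divergent genes lay 868 and 1207 bp away. MET4 was at 0 in all tables, and HAP4 had 0 counts in CIP/TAP, 20 in TAP and 167 in ribo depletion, where SLD2 was at 0.

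In the 20 close divergent pairs, the replication identifier and its neighbour could be set side by side. The replication identifier had the larger count in 13 pairs in CIP/TAP, 14 in TAP and 12 in ribo depletion, and the neighbour in 7, 5 and 6. The replication identifier led in all tables in 9 pairs, among them DPB3, with 3941, 2270 and 2393 counts against 182, 152 and 47 under PPS1, and POL2, with 1183, 855 and 1152 against 92, 88 and 351 under YIF1. PSF2 and RFC3 were the lower side in all tables, with ARG2 at 384, 325 and 288 beside PSF2 and MID1 at 296, 320 and 983 beside RFC3. How often either side led was not tested in other close divergent pairs. The numbers of pairs therefore cannot be taken as particular to replication genes.

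Some pairs changed sides between tables. POL3 led QRI1 with 858 against 148 counts in CIP/TAP and 796 against 33 in TAP, but had 2156 against 2673 in ribo depletion. DPB4 led TRM1 with 372 against 43 in CIP/TAP and 351 against 253 in TAP, but had 473 against 1020 in ribo depletion. RFC4 trailed TRM10 in TAP, 106 against 116, and led it with 2368 against 11 in ribo depletion. RFA1 trailed SEN34 with 143 against 189 in CIP/TAP and 54 against 214 in TAP, and led with 347 against 9 in ribo depletion. POL31, at 0 in all tables, lay beside LSO1 with 124, 1 and 0 counts, and TAH11 lay beside SSC1 with 1, 0 and 0, so both sides of that pair were nearly empty.

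**Figure D4:**
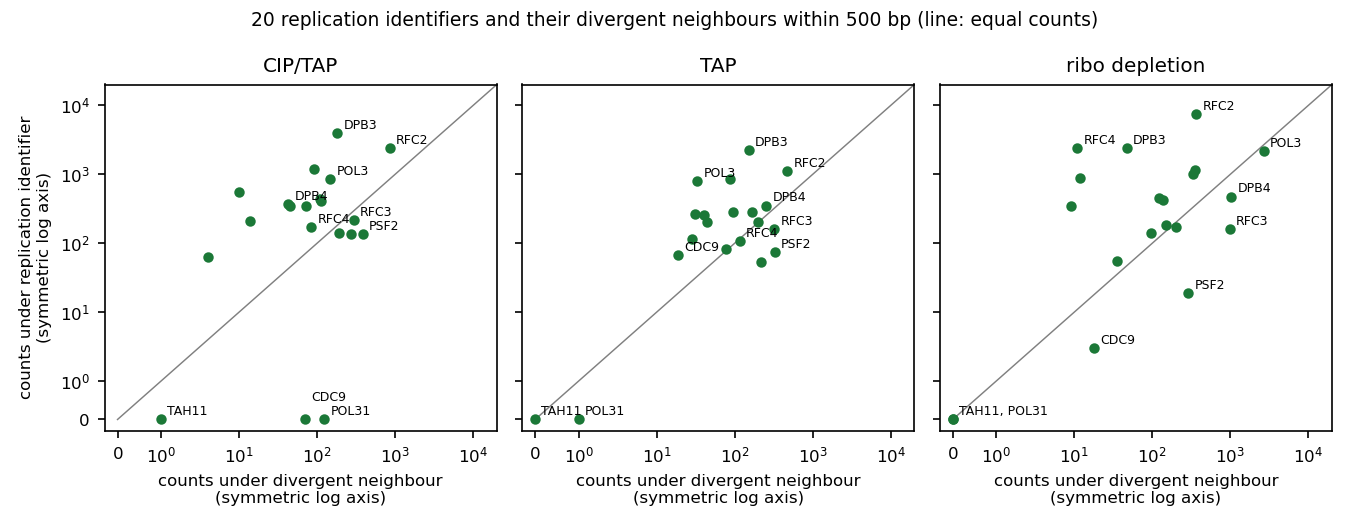
Counts under 20 replication identifiers (vertical axis) and under their divergent neighbours within 500 bp (horizontal axis), in CIP/TAP, TAP and ribo depletion, both on symmetric log scales with a line of equal counts. DPB3 and RFC2 lie above the line in every table, PSF2 and RFC3 below it.

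CIP/TAP against TAP asks which 5′ ends depend on uncapped phosphates, since both libraries were poly(A)-selected. Counts were scaled by TMM factors of the pair, and an identifier was measured where the pair summed to 50 counts or more. DPB2 was 2.53 higher on the log2 scale (95% interval 2.20 to 2.89), ORC2 2.29 (1.44 to 3.36), RFA1 1.21 (0.76 to 1.70) and SLD2 1.10 (0.74 to 1.48, or 0.94 and 0.90 when scaled by total counts and by upper quartiles). PRI2, with 99 against 0 counts, was 29.1-fold higher, taking 0 as 3 counts in that table (lower interval limit 4.54 on the log2 scale). In the other direction, CDC9 with 0 against 67 counts was 25.4-fold lower, with 0 so taken (upper interval limit −4.33 on the log2 scale). CSM3 was at −1.06 (−1.53 to −0.61). The next lowest were SLD5 at −0.75 (−1.07 to −0.43), RFC1 at −0.65 (−0.92 to −0.39) and DPB4 at −0.10 (−0.31 to 0.11).

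These made 5 of 23 measured members at least 2-fold higher, against 22.2% of all 1679 measured identifiers, and 2 lower, against 15.6%. The median of the 23 was 0.47 (order-statistic 95% interval 0.20 to 0.83), and that of all measured identifiers was 0.16 (0.10 to 0.21). The value for all identifiers lay just below the interval of the members, and the 2 intervals overlapped at their ends. Subunits of one complex differed beyond counting error, since the intervals of DPB2 and of POL2 (0.28, 0.16 to 0.41), DPB3 (0.61, 0.54 to 0.69) and DPB4 did not overlap.

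TAP against ribo depletion compares RNA selected by its tail with RNA freed of ribosomal RNA, and the enzyme treatment cannot be told apart from selection. Below the fold were RFC4 at −4.05 (−4.35 to −3.78), ORC2 at −3.60 (−4.63 to −2.82), DPB2 at −3.17 (−3.52 to −2.85) and RFC2 at −2.31 (−2.41 to −2.22). PRI2, with 0 against 102 counts, was 25.4-fold lower, taking 0 as 3 counts (upper interval limit −4.34 on the log2 scale). These 5 stayed at least 2-fold lower under each of the 4 scalings tried, while RFA1, RFA3, PRI1, CTF4 and POL3 did not. POL3 was at −1.02 and turned to 0.27 with total counts.

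Above the fold, SLD2 with 86 against 0 counts was 38.4-fold higher, taking 0 as 3 counts (lower interval limit 4.93 on the log2 scale). CDC9, with 67 against 3 counts, was at 4.69 (3.29 to 7.22), PSF2 at 2.36 (1.64 to 3.19), CSM3 at 1.47 (1.00 to 1.96), ORC6 at 1.36 (1.06 to 1.66), RFC1 at 1.17 (0.89 to 1.45) and PSF3 at 1.02 (0.75 to 1.30, or 0.89 with DESeq2 size factors). In all, 7 of 24 measured members were at least 2-fold higher, against 31.9% of all 1646 measured identifiers, and 10 were lower, against 38.0%. The members' median was −0.45 (−2.24 to 1.02) and that of all measured identifiers −0.18 (−0.35 to −0.01). With total counts the members' median was 0.83 and that of all identifiers 1.10, so the direction depended on scaling.

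Within complexes the ratios spread widely. In the clamp loader, RFC1 was higher and RFC3 at 0.41 (0.09 to 0.74), while RFC2 and RFC4 were lower, and no interval of RFC1 or RFC3 touched one of RFC2 or RFC4. In GINS, PSF2 and PSF3 were higher and SLD5 was at −0.64 (−0.89 to −0.40), or 0.65 with total counts. In polymerase epsilon, POL2 and DPB4 were both at −0.01 and DPB3 at 0.35 (0.26 to 0.43), apart from DPB2. With total counts POL2 and DPB4 were both at 1.28, DPB3 at 1.63 and RFC3 at 1.70, each then at least 2-fold higher. In RPA, RFA1 at −2.25 (−2.70 to −1.85) and RFA3 at −2.24 (−3.01 to −1.60) lay below RFA2 at −0.39 (−0.61 to −0.16), and total counts moved all 3 up to −0.97, −0.96 and 0.90.

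**Figure D5:**
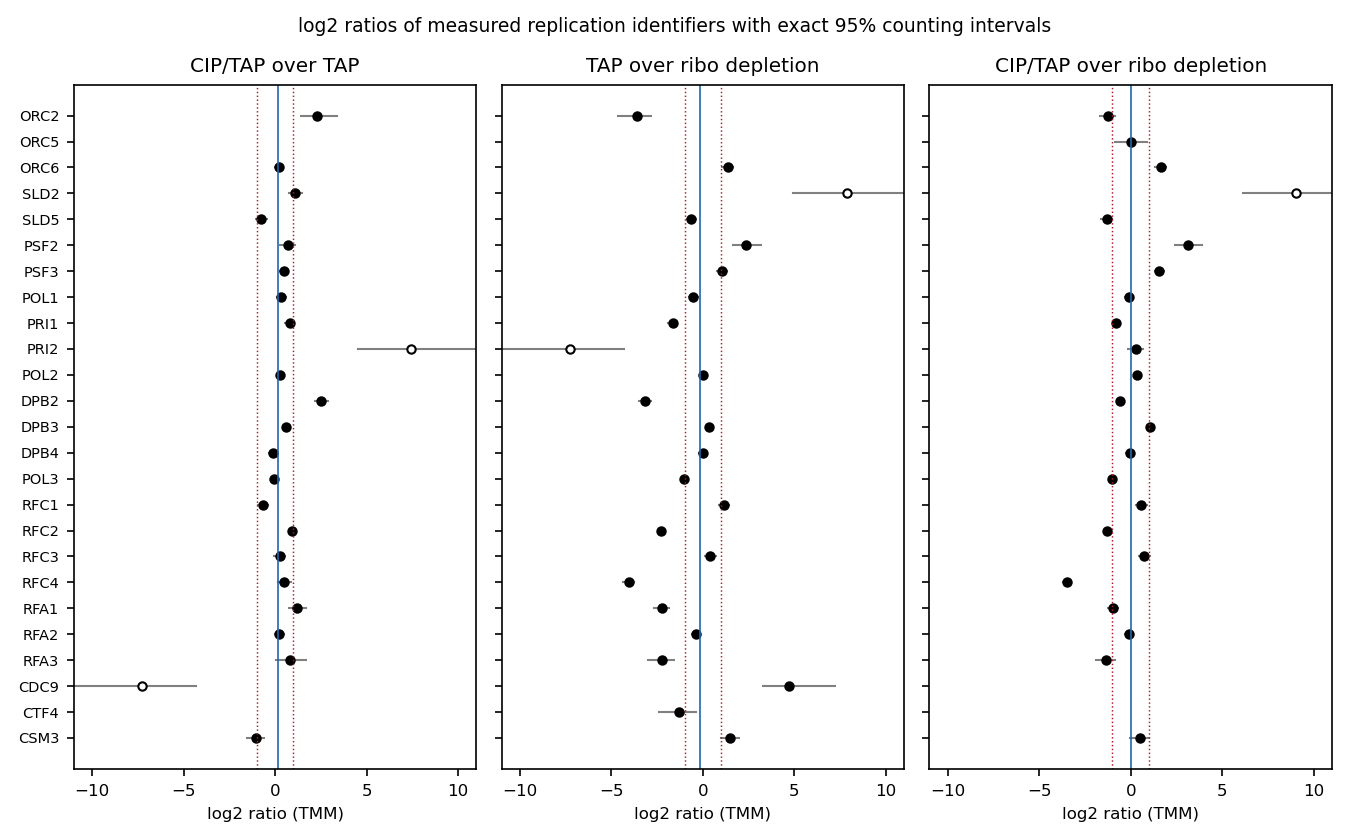
log2 ratios (horizontal axis, TMM-scaled) of measured replication identifiers (rows) for CIP/TAP over TAP, TAP over ribo depletion and CIP/TAP over ribo depletion; lines are exact 95% counting intervals, dotted lines a 2-fold change and the blue line the median of all measured identifiers. Open points have a table at 0 and depend on the 0.5 added to each count; RFC4 lies low in both comparisons with ribo depletion and SLD2 and PSF2 lie high.

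CIP/TAP against ribo depletion uses the same ribo depletion table, so its values are not independent of those above. SLD2 with 210 against 0 counts was 86.7-fold higher, taking 0 as 3 counts (lower interval limit 6.13 on the log2 scale). PSF2 was at 3.11 (2.44 to 3.91), ORC6 at 1.63 (1.35 to 1.93), PSF3 at 1.56 (1.31 to 1.82) and DPB3 at 1.03 (0.96 to 1.10). RFC4 was at −3.48 (−3.71 to −3.26), the one lower call of 6 that held under each of the 4 scalings. RFA3 at −1.34 (−1.88 to −0.85), SLD5 at −1.32 (−1.61 to −1.04), RFC2 at −1.32 (−1.38 to −1.25) and ORC2 at −1.24 (−1.66 to −0.85) were between −0.29 and −0.19 with total counts, and POL3 at −1.02 turned to 0.03. These were 5 of 23 measured members higher, against 36.4% of all 1700 measured identifiers, and 6 lower, against 35.6%. The median was −0.04 (−0.97 to 0.58), against 0.02 (−0.11 to 0.15) for all, or 1.02 and 1.07 with total counts. DPB2 and PRI2, which differed by over 2-fold between the poly(A) libraries, were at −0.57 (−0.72 to −0.42, or 0.49 with total counts) and 0.27 (−0.15 to 0.68, or 1.32 with total counts) here.

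The order of the members was compared between tables. Over the 30 members with at least 10 counts in some table, Spearman's rho of counts was 0.84 between CIP/TAP and TAP, 0.81 between CIP/TAP and ribo depletion and 0.73 between TAP and ribo depletion. Over the 2766 identifiers so counted it was 0.74, 0.61 and 0.60 in the same order. These describe identifiers that share libraries and are not replicates.

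Other genes of replication, 31 listed by role, were read the same way. At least 10 counts were listed for 11 in CIP/TAP (35.5%, 19.2 to 54.6%), 14 in TAP (45.2%, 27.3 to 64.0%) and 13 in ribo depletion (41.9%, 24.5 to 60.9%). The shares of all identifiers, 33.0%, 37.1% and 31.5%, lay inside these intervals. The ribonucleotide reductase genes RNR1 to RNR4, which supply deoxynucleotides, were at 0 in all tables. So were the S phase cyclins CLB5 and CLB6, the kinase CDC7, SWI4, ELG1, DCC1, RLF2, SPT16 and POB3. Of all identifiers, 39.6% were at 0 in all tables. RNR2 was at 0 although a divergent gene, YJL027C, lay 154 bp away with 877 counts in CIP/TAP, 1134 in TAP and 1244 in ribo depletion. Of the 9 related genes with a divergent gene within 500 bp, 7 had at least 10 counts in CIP/TAP, 7 in TAP and 7 in ribo depletion. That was 77.8% in each, near the 72.9%, 76.6% and 70.2% of all identifiers so arranged. RRM3, a fork helicase with a divergent gene 373 bp away, had 1424 counts in CIP/TAP, 581 in TAP and 7293 in ribo depletion. SWI6, a G1/S transcription factor subunit, had 501, 406 and 2420, and CTF8, a subunit of another clamp loader, had 725, 595 and 1559. CTF18, of the same loader, had 259, 646 and 362, DBF4, the activator of Cdc7, had 36, 83 and 503, and PIF1, a helicase, had 74, 108 and 118. The G1/S factor MBP1 had 72, 52 and 142, and the histone chaperone ASF1 had 53, 1 and 193. For CIP/TAP over TAP, 2 of 11 measured were at least 2-fold higher, against 22.2% of all identifiers, and 5 lower, against 15.6%. For TAP over ribo depletion, 1 of 12 was higher, against 31.9%, and 5 lower, against 38.0%. For CIP/TAP over ribo depletion, 0 of 10 were higher, against 36.4%, and 5 lower, against 35.6%.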

How the data were processed

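The authors deposited raw counts of reads for each identifier, whole numbers with no normalization. Tools named in the submitters' processing notes are featureCounts, bedtools, BWA 0.6.2 and bcl2fastq, with the build sacCer3 and no roles. No source used here states the counted feature, the strand setting or how the 3 ribo depletion samples were combined. The members and lists were chosen with earlier results of these data known. Names, positions and strands (the W or C of systematic names) came from the RefSeq gene table of R64, the assembly behind sacCer3, which matched 5794 of 5797 identifiers. Ratios are log2 of (count + 0.5) over library sizes scaled with edgeR 4.0.16 (TMM, R 4.3.3), for identifiers with at least 50 counts over a pair, and a 2-fold ratio was counted. Their 95% intervals are exact Clopper-Pearson intervals of the share of 1 table in the sum (scipy 1.17.1). A table at 0 was set to 3 counts for the folds given with it, which leave out the counting error of the other table. The code was tested on simulated data. Named were members with at least 200 counts over the 3 tables, the 5 highest and 5 lowest ratios per comparison, and members at 0. The members outside these rules, and related genes under 200 counts, were named after their values were seen. A planned search of promoters for motifs was not run.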

Additional observations from a re-analysis of the deposited data

How the results depend on the processing

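Scaling mattered most against ribo depletion. Scaling by total counts shifted the all-identifier median by 1.28 for TAP and by 1.05 for CIP/TAP over ribo depletion (upper-quartile scaling by 0.37 and 0.08), and by −0.16 for CIP/TAP over TAP. With total counts, TAP over ribo depletion gave 11 members higher and 5 lower in place of 7 and 10, and CIP/TAP over ribo depletion gave 12 higher and 1 lower in place of 5 and 6, with a median of 1.02. All identifiers moved the same way. With total counts 850 of 1646 were higher and 381 lower for TAP over ribo depletion. For CIP/TAP over ribo depletion, 868 of 1700 were higher and 393 lower. The filter moved small counts of calls. For CIP/TAP over TAP, a minimum of 10 counts gave 9 higher and 4 lower, no filter 10 and 6, and a minimum of 200 gave 2 and 0. A minimum of 200 gave 3 higher for TAP over ribo depletion, and for CIP/TAP over ribo depletion a minimum of 10 gave 8 higher and no filter 9. For CIP/TAP over TAP, 29 members were measured at a minimum of 10 counts, 32 with no filter and 17 at a minimum of 200, against 23 at 50. The shares called changed with the filter as well as the number measured. Shares of all identifiers at these other minimums are not given here, so the calls cannot be set against them. The other 58 of 72 recomputed counts and medians stayed within 1.5 times the count or inside the interval of the median. Wide intervals made that rule easy to meet. The median for TAP over ribo depletion met it although it went from −0.45 to 0.83 with total counts (interval −2.24 to 1.02). No paired analysis was possible because the poly(A) groups have 1 library each and the ribo depletion samples share 1 table, and for the same reason no replicate could be left out. Depth limits members under 50 counts, whose ratios were not measured.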
